A study of Mus musculus with 36 samples.

Results

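The report is about 35 genes of glycolysis and of the transcriptional response to low oxygen, in cultured mouse lung pericyte-like cells. They were taken by name from a list and found in the deposited count table, which holds 48795 gene identifiers, through the symbol of each Ensembl identifier. All 35 were found and all 35 passed the filter on low counts. 16 of them are glucose and lactate carriers and enzymes of glycolysis. The other 19 are targets of the hypoxia-inducible factors outside that chain.

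The cells had been grown out of lung digests, depleted of cells carrying CD31, CD45 or CD326 (endothelial, leukocyte and epithelial markers), and selected for PDGFRβ, a receptor of pericytes and fibroblasts. They were exposed for 24 or 6 h to bronchoalveolar lavage fluid (BALF) from injured lungs, to BALF from uninjured lungs, or to media only. Each fluid was mixed 1:1 with medium of reduced serum, and the media only wells received PBS in that mixture. The labels give neither the kind of injury nor the mouse strain and age, and they name no genetic change. Libraries of 3 female and 3 male samples were made for each treatment at each time, so that n = 6 in all 6 groups. Whether the 3 libraries of a sex came from separate animals or cultures is not stated, so the p-values measure only the spread between these 36 samples. The oxygen supply of the cultures is not given, and in bulk RNA fewer cells of a type cannot be told from less RNA per cell.

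As background, glycolysis breaks glucose down to pyruvate in the cytosol, and lactate dehydrogenase turns pyruvate into lactate, which leaves the cell through monocarboxylate carriers. Hypoxia-inducible factors are pairs of an unstable alpha subunit, such as HIF-1α from Hif1a, and the stable partner ARNT. Prolyl hydroxylases of the EGLN family use oxygen to mark the alpha subunit for removal, and when oxygen is short the pair binds a short DNA core and raises transcription of most genes described here. Inflammatory signals and iron supply can also act on this pathway at normal oxygen.

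The DNA core bound by hypoxia-inducible factors is ACGTG or, less strictly, GCGTG. Promoter windows from 250 bases before to 50 bases after each annotated start were taken from RefSeq (GRCm38.p6) and were found for 33 of the 35 genes, as 50 windows, since some genes have several starts. Bnip3l and Ndrg1 had none. ACGTG or GCGTG on either strand was present in 39 of the 50 windows (78.0%), against 43.8% of all 32851 promoter windows of the same length. ACGTG alone was present in 54.0% of the 50 windows and in 19.6% of all windows. The 50 windows were also richer in G and C, with a median of 63.8% against 52.7%, and a CACGTG box, which other factors bind, contains ACGTG on both strands. A match is a description of the letters and not a site of binding. The windows of 3 genes are printed because these genes moved most or moved against the others: Ankrd37 and Bnip3 had the lowest expression relative to media at 6 h, whereas Adm was higher than in media. Capitals mark ACGTG or GCGTG on either strand (CACGT or CACGC where the match is on the other strand), and each sequence runs 5′ to 3′ on the gene's own strand.
Ankrd37, chr8:45999801-46000100, minus strand: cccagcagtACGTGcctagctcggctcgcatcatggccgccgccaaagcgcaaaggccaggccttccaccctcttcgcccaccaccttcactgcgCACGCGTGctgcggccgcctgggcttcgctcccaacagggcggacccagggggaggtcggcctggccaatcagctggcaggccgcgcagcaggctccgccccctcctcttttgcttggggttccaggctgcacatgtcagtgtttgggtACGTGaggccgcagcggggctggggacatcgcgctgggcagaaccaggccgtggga
Bnip3, chr7:138909457-138909756, minus strand: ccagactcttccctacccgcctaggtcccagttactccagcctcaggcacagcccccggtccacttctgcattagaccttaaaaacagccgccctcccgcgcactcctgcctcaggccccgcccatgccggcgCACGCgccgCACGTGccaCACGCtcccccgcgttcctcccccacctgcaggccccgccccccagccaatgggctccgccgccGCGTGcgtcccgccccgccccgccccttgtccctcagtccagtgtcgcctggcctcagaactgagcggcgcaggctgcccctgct
Adm, chr7:110627407-110627706, plus strand: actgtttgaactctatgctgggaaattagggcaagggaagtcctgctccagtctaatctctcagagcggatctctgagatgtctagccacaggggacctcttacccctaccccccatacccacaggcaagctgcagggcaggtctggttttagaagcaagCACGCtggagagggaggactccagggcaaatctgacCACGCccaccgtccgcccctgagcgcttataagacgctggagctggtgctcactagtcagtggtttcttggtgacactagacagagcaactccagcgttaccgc
The Ankrd37 window held 4 matches, 2 of them ACGTG, and the Bnip3 window held 5, of which the 2 ACGTG are both strands of a single CACGTG box. The Adm window held 2 matches, neither of them ACGTG.

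Total counts ran from 17134840 to 35991683 per library, and levels are given as CPM, the counts of a gene relative to its library's total, scaled with edgeR's TMM factors. Pdgfrb, on which the cells were selected, was present at 255.8 to 861.6 CPM in every library, whereas Higd1b, another pericyte marker, was at 0 in all 36. Summed markers of lung fibroblasts (8 genes) exceeded those of pericytes (11 genes) in every group, at 10788 to 31041 CPM against 591.9 to 2567 CPM, so the labelled cell type is not separated from fibroblasts by these lists. The fibroblast sum was mostly collagen: Col1a1, Col1a2 and Col3a1 had 8255721, 6675031 and 2397146 counts over all libraries. Its other genes had 2417 (Lum) to 219999 (Npnt), against 546109 for Pdgfrb. The excess over the pericyte sum thus lay in the collagens. Other cell types contributed less, with sums of at most 86.4 CPM for macrophage markers, 183.7 CPM for endothelial, 239.3 CPM for mesothelial, 8.98 CPM for neutrophil and 0.916 CPM for epithelial markers. 

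3 female libraries of 24 h stood above the rest in these genes. Female injured BALF replicate 3 was the highest of its 6 libraries in 28 of the 35 genes, female uninjured BALF replicate 1 in 32 and female media only replicate 3 in 26. Female injured BALF replicate 2 was the lowest of its 6 libraries in 30 of 35. Female media only replicate 1 was the lowest of its 6 in 15. It had Ldha at 646 CPM and Pgk1 at 162.8 CPM, where the next lowest media library of 24 h had 1083 and 323.3 CPM. At 6 h no library was the highest of its treatment in more than 18 genes. The 24 h values therefore spread more widely than the 6 h values, as the heat map of all libraries shows, and counts of changed genes are given below without the 3 high libraries, a choice made after seeing the data.

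4 other libraries carry serial numbers of a separate range in the labels: male uninjured BALF 24 h replicate 3, female media only 24 h replicate 2, male media only 24 h replicate 3 and male media only 6 h replicate 3. None was injured BALF. They stood apart in marker sums, with 17.15 to 20.86 CPM for macrophage markers against 37.44 to 86.44 CPM in the other 32 libraries, and 7.37 to 14.19 CPM against 24.32 to 183.7 CPM for endothelial markers. What the serial number marks is not stated, and the part of these libraries in the results was tested only by leaving them out. Without them 5 genes rose and 1 fell in injured BALF against media at 24 h, in place of 10 and 1, and at 6 h 1 rose and 10 fell, in place of 2 and 12. In uninjured BALF against media at 6 h 2 rose and 8 fell, in place of 2 and 9, and the 2 comparisons of injured with uninjured BALF gave 1 gene at 24 h and 2 at 6 h, as with all libraries. Over all genes tested, those passing without the 4 libraries went from 3774 to 2951 in injured BALF against media at 24 h. At 6 h they went from 4011 to 3309 in injured BALF and from 2923 to 2255 in uninjured BALF, both against media. For injured against uninjured BALF they went from 703 to 598 at 24 h and from 546 to 554 at 6 h.

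**Figure D1:**
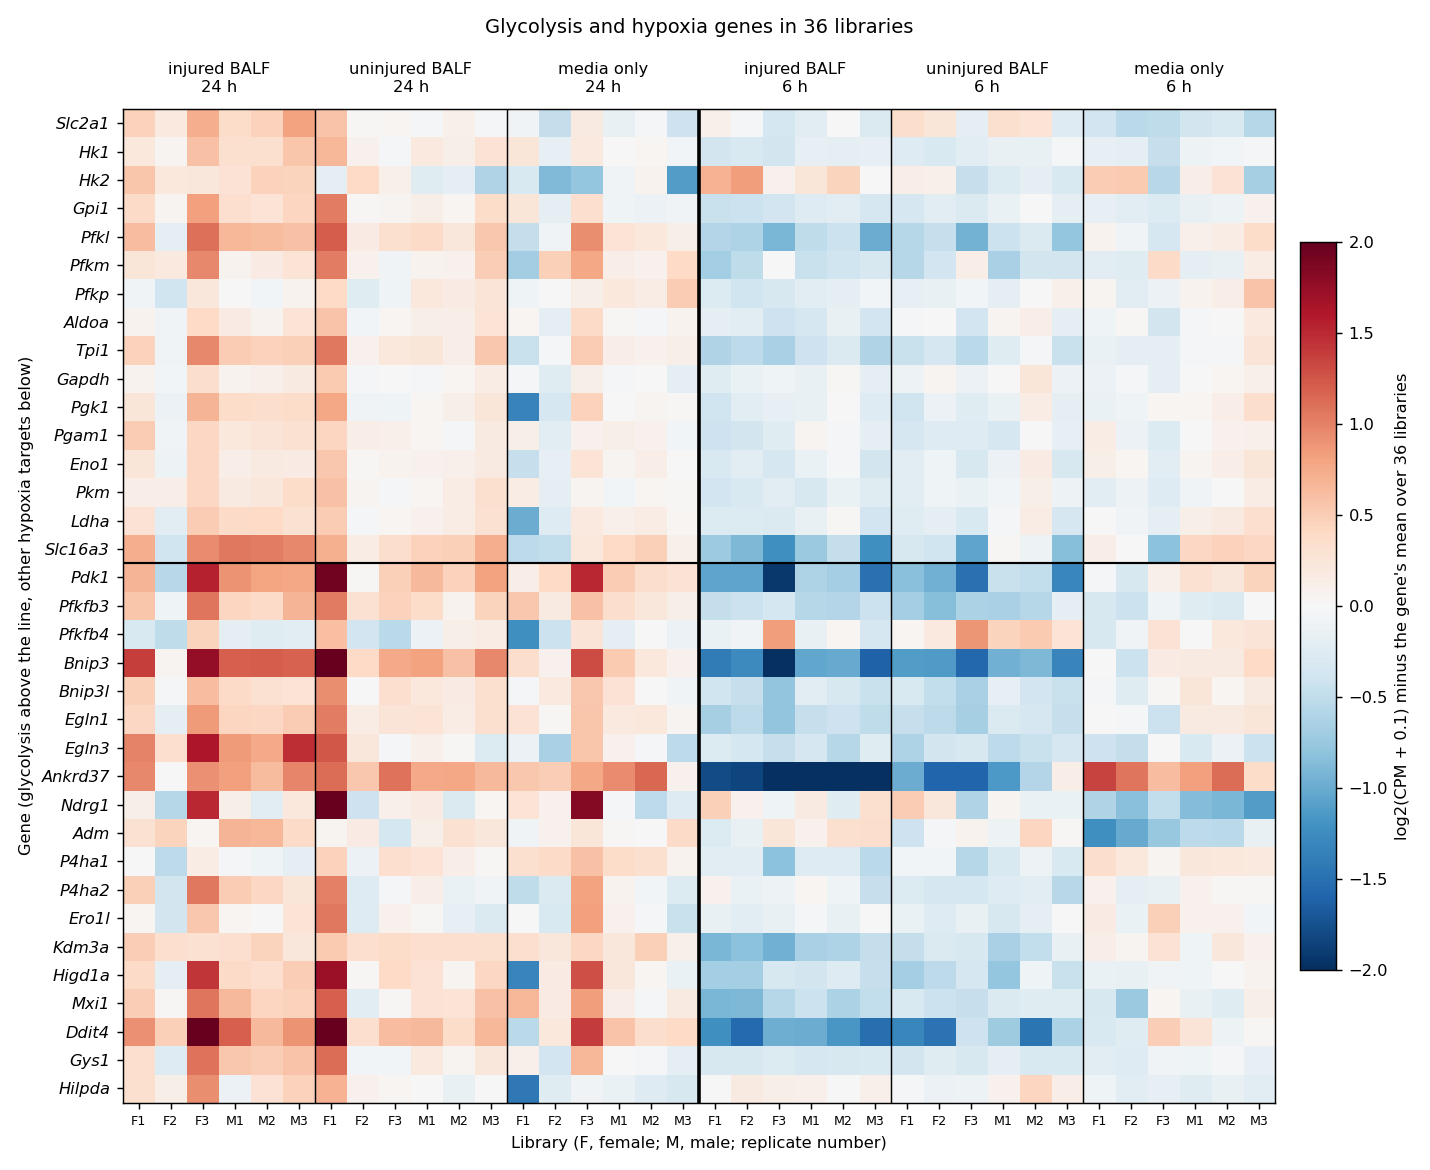
Level of each of the 35 genes (rows) in each of the 36 libraries (columns), as log2(CPM + 0.1) minus the gene's mean over all libraries; red is above and blue below that mean, and the colours stop at 2 log2 units. Both BALF groups are mostly blue at 6 h and red at 24 h, and libraries F3 of injured BALF, F1 of uninjured BALF and F3 of media at 24 h are the reddest of their groups.

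What the lavage fluid of an uninjured lung did to these genes was seen by setting it against media. At 24 h none of the 35 genes passed the test in uninjured BALF against media (edgeR's quasi-likelihood test, Benjamini-Hochberg adjusted p under 0.05 over 15901 genes, a rule that called 0.868% of all genes there). DESeq2 also called 0 of them. Of the 35, 7 had an unadjusted p under 0.05, all 7 with values above 0, as had 1793 of all 15901 genes in either direction. Their median log2 fold change was 0.19, against -0.00 over all genes, and 32 of 35 values lay above 0. At 6 h, 11 of 35 genes passed, 2 that rose and 9 that fell, where 18.4% of all genes passed (10.6% rose and 7.82% fell). The median was -0.23, against -0.01 over all genes. Over all genes 1679 rose and 1244 fell, and with upper quartile scaling 1346 rose and 1642 fell.

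At 6 h the 9 genes that fell in uninjured BALF were Ankrd37, Bnip3, Pdk1, Ddit4, Pfkl, Kdm3a, Egln1, Bnip3l and P4ha1, with log2 fold changes of -1.90 to -0.43. 8 of them are hypoxia targets outside glycolysis. Slc2a1 and Adm rose by 0.59 and 0.70. Without the 3 high female 24 h libraries, which also alters the shared estimate of spread, 17 genes passed, 3 that rose and 14 that fell. When libraries 1 and 2 of each group were summed into 1, 6 passed, and without replicate 1 or replicate 2 of every group 5 and 3 passed. Over all genes 2923 calls became 3502 without the 3 high libraries, 1593 summed, and 1269 and 941 without replicate 1 and 2.

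**Figure D2:**
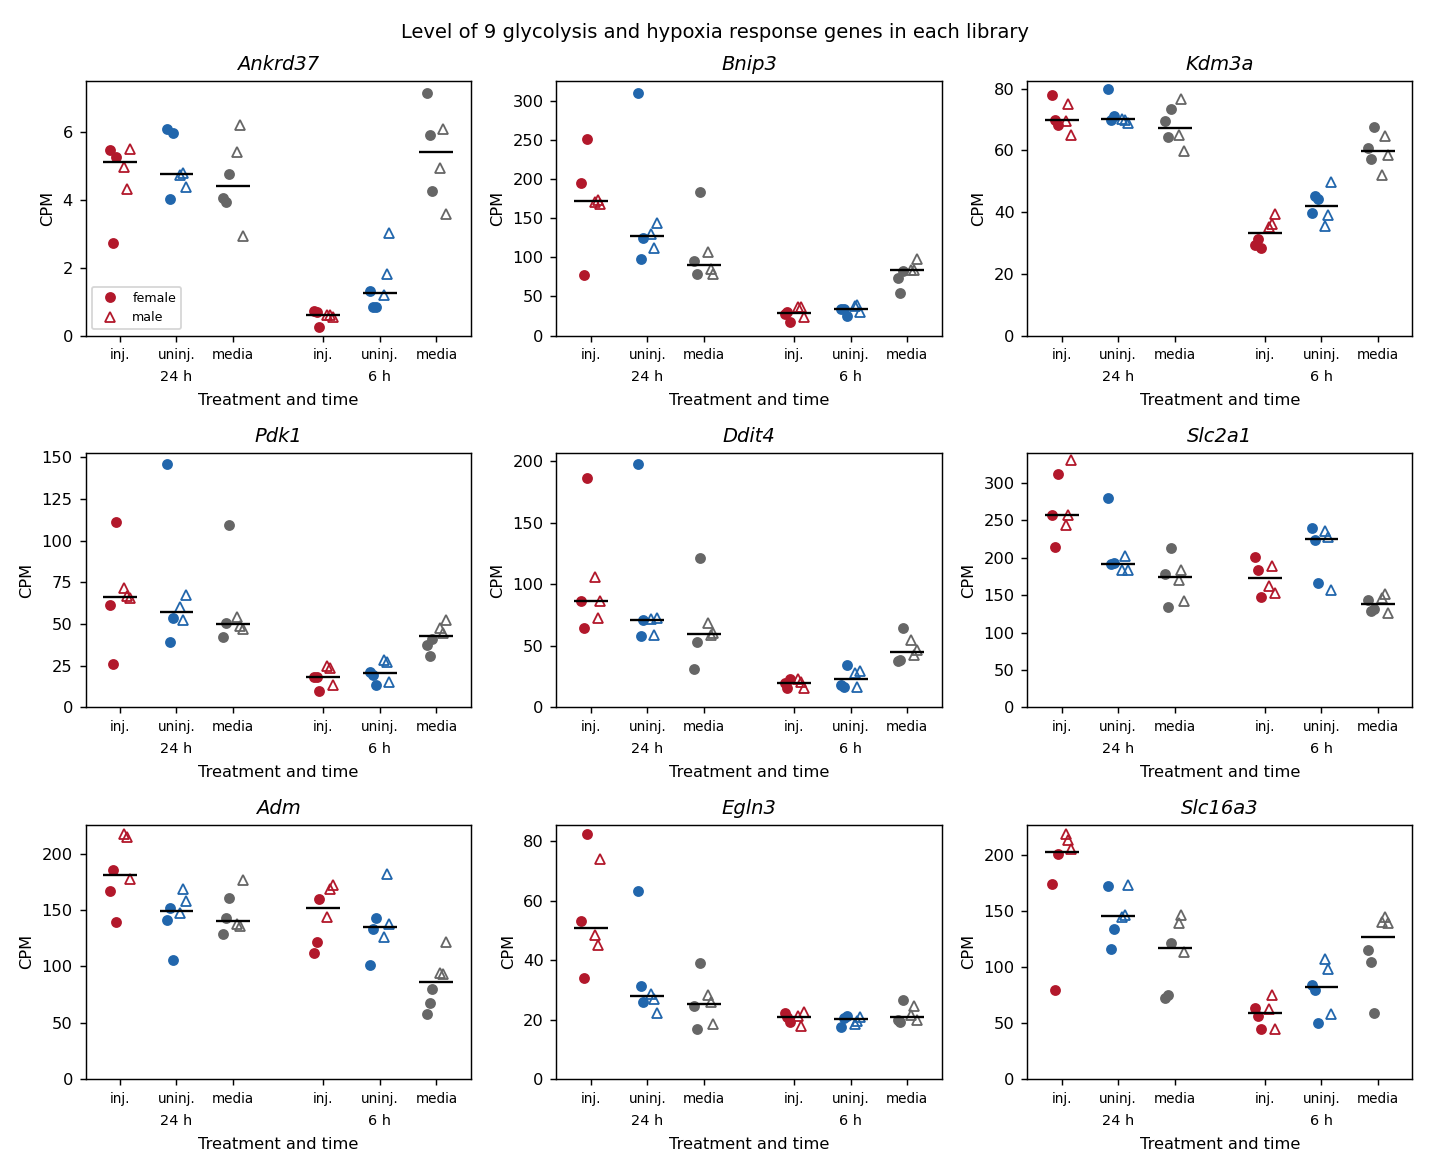
Level in CPM (vertical axes, from 0) of 9 of the genes in each library, by treatment and time (inj., injured BALF; uninj., uninjured BALF; media, media only); filled circles are female, open triangles male, and lines are medians of 6. For Ankrd37, Bnip3, Kdm3a, Pdk1 and Ddit4 both BALF groups lie below media at 6 h and near or above it at 24 h.

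Ankrd37 (chr8:45996902-46005707, minus strand; positions are of whole genes in GRCm38, from the GENCODE M21 annotation) encodes an ankyrin repeat protein known chiefly as a hypoxia target. At 6 h its level was 0.250, 0.615 and 0.728 CPM in injured BALF (lowest, median and highest of 6 libraries, the order used for all such values), 0.849, 1.26 and 3.03 CPM in uninjured BALF, and 3.58, 5.43 and 7.16 CPM in media. The 3 groups did not overlap. These levels rest on few counts, 6 to 20 per library in injured BALF, 19 to 73 in uninjured BALF and 101 to 164 in media. Uninjured BALF was 3.72-fold lower than media (log2 -1.90 ± 0.24 SE, adjusted p = 3.2e-06), and injured BALF was 9.09-fold lower than media (-3.19 ± 0.26, adjusted p = 9e-10). Injured BALF was 2.44-fold lower than uninjured BALF (-1.29 ± 0.27, adjusted p = 0.0038). The log2 ratio of uninjured BALF to media was -2.26 over libraries 1 and 2 and -1.29 over libraries 3, and that of injured to uninjured BALF was -0.91 and -2.10. At 24 h the 3 treatments overlapped, at 2.73, 5.12 and 5.52 CPM in injured BALF, 4.04, 4.76 and 6.09 CPM in uninjured BALF, and 2.95, 4.42 and 6.20 CPM in media.

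Bnip3 (chr7:138890836-138909519, minus strand) encodes a mitochondrial receptor that marks mitochondria for removal. At 6 h its level was 17.5, 29.5 and 36.8 CPM in injured BALF, 25.01, 33.9 and 39.6 CPM in uninjured BALF, and 55.0, 83.5 and 97.4 CPM in media. Both BALF groups lay wholly below media and overlapped each other. Uninjured BALF was 2.37-fold lower than media (log2 -1.25 ± 0.25, adjusted p = 0.00088) and injured BALF 2.75-fold lower (-1.46 ± 0.26, adjusted p = 8.7e-05). At 24 h the level was 77.2, 171.5 and 251.7 CPM in injured BALF, 97.6, 127.7 and 310.6 CPM in uninjured BALF, and 78.8, 90.4 and 183.5 CPM in media, with every pair of groups overlapping. Its relative Bnip3l, which serves the same function, fell at 6 h by 0.44 on the log2 scale in uninjured BALF and by 0.48 in injured BALF, both against media.

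Pdk1 and Ddit4 followed Bnip3 at 6 h. Pdk1 (chr2:71873224-71903858, plus strand) encodes a kinase that shuts off pyruvate dehydrogenase and so keeps pyruvate out of mitochondria. At 6 h it lay at 10.0, 18.5 and 25.1 CPM in injured BALF, 13.6, 20.6 and 28.2 CPM in uninjured BALF, and 30.8, 43.1 and 52.2 CPM in media. No BALF library reached the lowest media library, and the log2 fold changes against media were -1.01 ± 0.30 in uninjured BALF (adjusted p = 0.016) and -1.22 ± 0.30 in injured BALF (adjusted p = 0.003). Ddit4 (chr10:59949669-59951834, minus strand), whose product restrains mTORC1, lay at 15.6, 20.0 and 23.3 CPM in injured BALF, 16.4, 23.4 and 34.4 CPM in uninjured BALF, and 37.4, 44.7 and 64.5 CPM in media. Again neither BALF group overlapped media, with log2 fold changes of -0.99 ± 0.30 (adjusted p = 0.021) in uninjured BALF and -1.27 ± 0.30 (adjusted p = 0.0024) in injured BALF. The uninjured BALF call for Ddit4 was lost without any single one of 4 libraries of 6 h, female media only replicate 3, female uninjured BALF replicates 1 and 2 and male uninjured BALF replicate 2, with an adjusted p of up to 0.072. The uninjured BALF call for Pfkl (-0.62 ± 0.20, adjusted p = 0.03) was likewise lost without any single one of 4 libraries of 6 h, replicate 3 of either sex in uninjured BALF, male media only replicate 3 and female media only replicate 1. At 24 h Pdk1 lay at 26.0, 66.2 and 111.5 CPM in injured BALF, 39.1, 56.9 and 145.9 CPM in uninjured BALF and 41.99, 49.8 and 109.3 CPM in media. Ddit4 then lay at 64.1, 86.3 and 186.4 CPM in injured BALF, 58.3, 71.3 and 197.6 CPM in uninjured BALF and 31.5, 59.5 and 121.3 CPM in media. The treatments overlapped in both genes at 24 h, and in both the highest library of each treatment was one of the 3 high female libraries.

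Kdm3a (chr6:71588972-71632990, minus strand) encodes a histone H3 lysine 9 demethylase. It varied little within groups. At 6 h its level was 28.2, 33.3 and 39.5 CPM in injured BALF, 35.4, 42.1 and 49.7 CPM in uninjured BALF, and 52.1, 59.7 and 67.5 CPM in media. At 24 h it was 65.0, 69.7 and 78.0 CPM in injured BALF, 68.8, 70.0 and 79.9 CPM in uninjured BALF, and 59.7, 67.3 and 76.7 CPM in media. At 6 h both BALF groups lay below media, and the log2 fold changes were -0.51 ± 0.08 for uninjured BALF against media (adjusted p = 3.6e-05), -0.86 ± 0.08 for injured BALF against media (adjusted p = 4.1e-09) and -0.35 ± 0.08 for injured against uninjured BALF (adjusted p = 0.0069). At 24 h the injured against uninjured difference was -0.01, with an approximate 95% interval of -0.17 to 0.15.

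Of the enzymes that sense oxygen or act on collagen, Egln1, the main hydroxylase of the alpha subunit, fell at 6 h by 0.48 ± 0.13 in uninjured BALF (adjusted p = 0.011) and by 0.59 ± 0.13 in injured BALF (adjusted p = 0.0016), on the log2 scale against media. P4ha1, a collagen prolyl 4-hydroxylase subunit, fell by 0.43 ± 0.12 and 0.58 ± 0.12 in the same 2 comparisons. P4ha1 was also the only one of the 35 genes below media at 24 h by the test, in injured BALF (log2 -0.44 ± 0.12, adjusted p = 0.0074), at 336.6, 464.2 and 532.1 CPM against 506.0, 611.1 and 727.2 CPM in media. P4ha2, its relative, did not pass in any comparison of treatments, with log2 values of -0.31 to 0.42. At 6 h, however, all its uninjured BALF libraries lay below all media libraries, at 115.6 to 146.9 CPM against 148.9 to 181.5 CPM.

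2 genes rose at 6 h in uninjured BALF. Slc2a1 (chr4:119108711-119137983, plus strand) encodes GLUT1, the main glucose carrier of many cells. At 6 h it lay at 147.2, 172.9 and 201.6 CPM in injured BALF, 157.6, 225.5 and 239.3 CPM in uninjured BALF, and 126.3, 137.8 and 151.6 CPM in media. Uninjured BALF lay wholly above media (log2 0.59 ± 0.13, adjusted p = 0.0018), whereas injured BALF overlapped both (0.32 ± 0.13 against media, adjusted p = 0.07). Adm (chr7:110627661-110629820, plus strand) encodes adrenomedullin, a vessel-relaxing peptide. At 6 h it lay at 111.8, 151.8 and 172.2 CPM in injured BALF, 101.6, 135.2 and 182.2 CPM in uninjured BALF, and 57.6, 86.6 and 121.9 CPM in media. It rose against media by 0.79 ± 0.12 in injured BALF (adjusted p = 1.7e-05) and by 0.70 ± 0.12 in uninjured BALF (adjusted p = 0.00016), on the log2 scale. Ndrg1, a stress-induced gene, gave 0.94 ± 0.34 in injured BALF (adjusted p = 0.039) and 0.82 ± 0.34 in uninjured BALF (adjusted p = 0.088). Its injured BALF call was lost without any single one of 10 of the 12 injured BALF and media libraries of 6 h, all but male injured BALF replicate 2 and female injured BALF replicate 3.

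Injured BALF was also set against media as a whole. At 6 h 14 of 35 genes passed, 2 that rose (Adm and Ndrg1) and 12 that fell, where 25.2% of all genes passed, and the median of the 35 was -0.26. Over all genes 2203 rose and 1808 fell, and with upper quartile scaling 1786 rose and 2286 fell. To the 9 genes that fell in uninjured BALF the test added Slc16a3 (log2 -0.99 ± 0.20, adjusted p = 0.00049), Tpi1 (-0.46 ± 0.16, adjusted p = 0.029) and Pfkp (-0.33 ± 0.10, adjusted p = 0.018). Slc16a3 encodes MCT4, the carrier that exports lactate. At 6 h it lay at 44.8, 59.3 and 75.4 CPM in injured BALF, 50.4, 81.8 and 106.6 CPM in uninjured BALF, and 59.2, 127.1 and 144.7 CPM in media, and 1 media library, female replicate 3, lay within the range of injured BALF. The call for Pfkp was lost without female replicate 1 or male replicate 3 of media at 6 h. That for Tpi1 was lost without either of these or without injured BALF female replicates 1 or 3 or male replicate 3. The 2 comparisons with media share the media libraries, and injured and uninjured BALF are therefore compared directly below.

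At 24 h 11 of 35 genes passed in injured BALF against media, 10 that rose and 1 that fell, where 23.7% of all genes passed (11.5% rose). The median of the 35 was 0.26. The 10 were Egln3 (log2 1.13 ± 0.21, adjusted p = 0.00019), Hk2 (0.83 ± 0.20, adjusted p = 0.0029), Bnip3 (0.73), Slc16a3 (0.72), Hilpda (0.72), Slc2a1 (0.66), Ldha (0.38), Gpi1 (0.37), Hk1 (0.30) and Pgam1 (0.26). 7 of them are glycolytic. Hk2, the inducible hexokinase, lay at 123.3, 137.6 and 156.9 CPM in injured BALF, 70.4, 94.3 and 141.0 CPM in uninjured BALF, and 49.0, 74.5 and 112.1 CPM in media. Slc2a1 lay at 214.5, 258.0 and 330.3 CPM in injured BALF, 183.8, 192.4 and 280.3 CPM in uninjured BALF, and 134.8, 174.3 and 213.0 CPM in media. In both genes injured BALF lay wholly above media, and uninjured BALF overlapped both.

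The other 24 h rises against media were less separated. Slc16a3 lay at 79.5, 202.7 and 218.0 CPM in injured BALF, 115.6, 145.1 and 172.6 CPM in uninjured BALF, and 72.7, 117.2 and 145.8 CPM in media, and 5 of the 6 injured BALF libraries, all but female replicate 2, lay above every library of the other 2 treatments. Ldha, which makes lactate, lay at 1106, 1630 and 1841 CPM in injured BALF, 1252, 1396 and 1837 CPM in uninjured BALF, and 646.0, 1356 and 1473 CPM in media. Its call was lost without any single one of 19 of the 36 libraries, including 6 h libraries through the shared spread, with an adjusted p of up to 0.12. The calls of Bnip3, Gpi1, Pgam1 and Hk1 were lost without any single one of 6, 5, 5 and 3 libraries. Female injured BALF replicate 3 was among these for all 4 genes and female media only replicate 2 likewise. Those of Egln3, Hk2, Slc2a1, Slc16a3, Hilpda and P4ha1 held without every single library. Without the 4 libraries of separate serial numbers the calls of Hk1, Gpi1, Pgam1, Ldha, Slc16a3 and Bnip3 were lost and that of Adm was gained. The count of 11 rested on single female 24 h libraries: it was 17 without injured BALF replicate 2, 7 without injured BALF replicate 3, 6 without media only replicate 2 and 21 without media only replicate 3. Without the 3 high libraries it was 17, 16 that rose and 1 that fell. Over all genes 4224 passed then, in place of 3774.

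**Figure D3:**
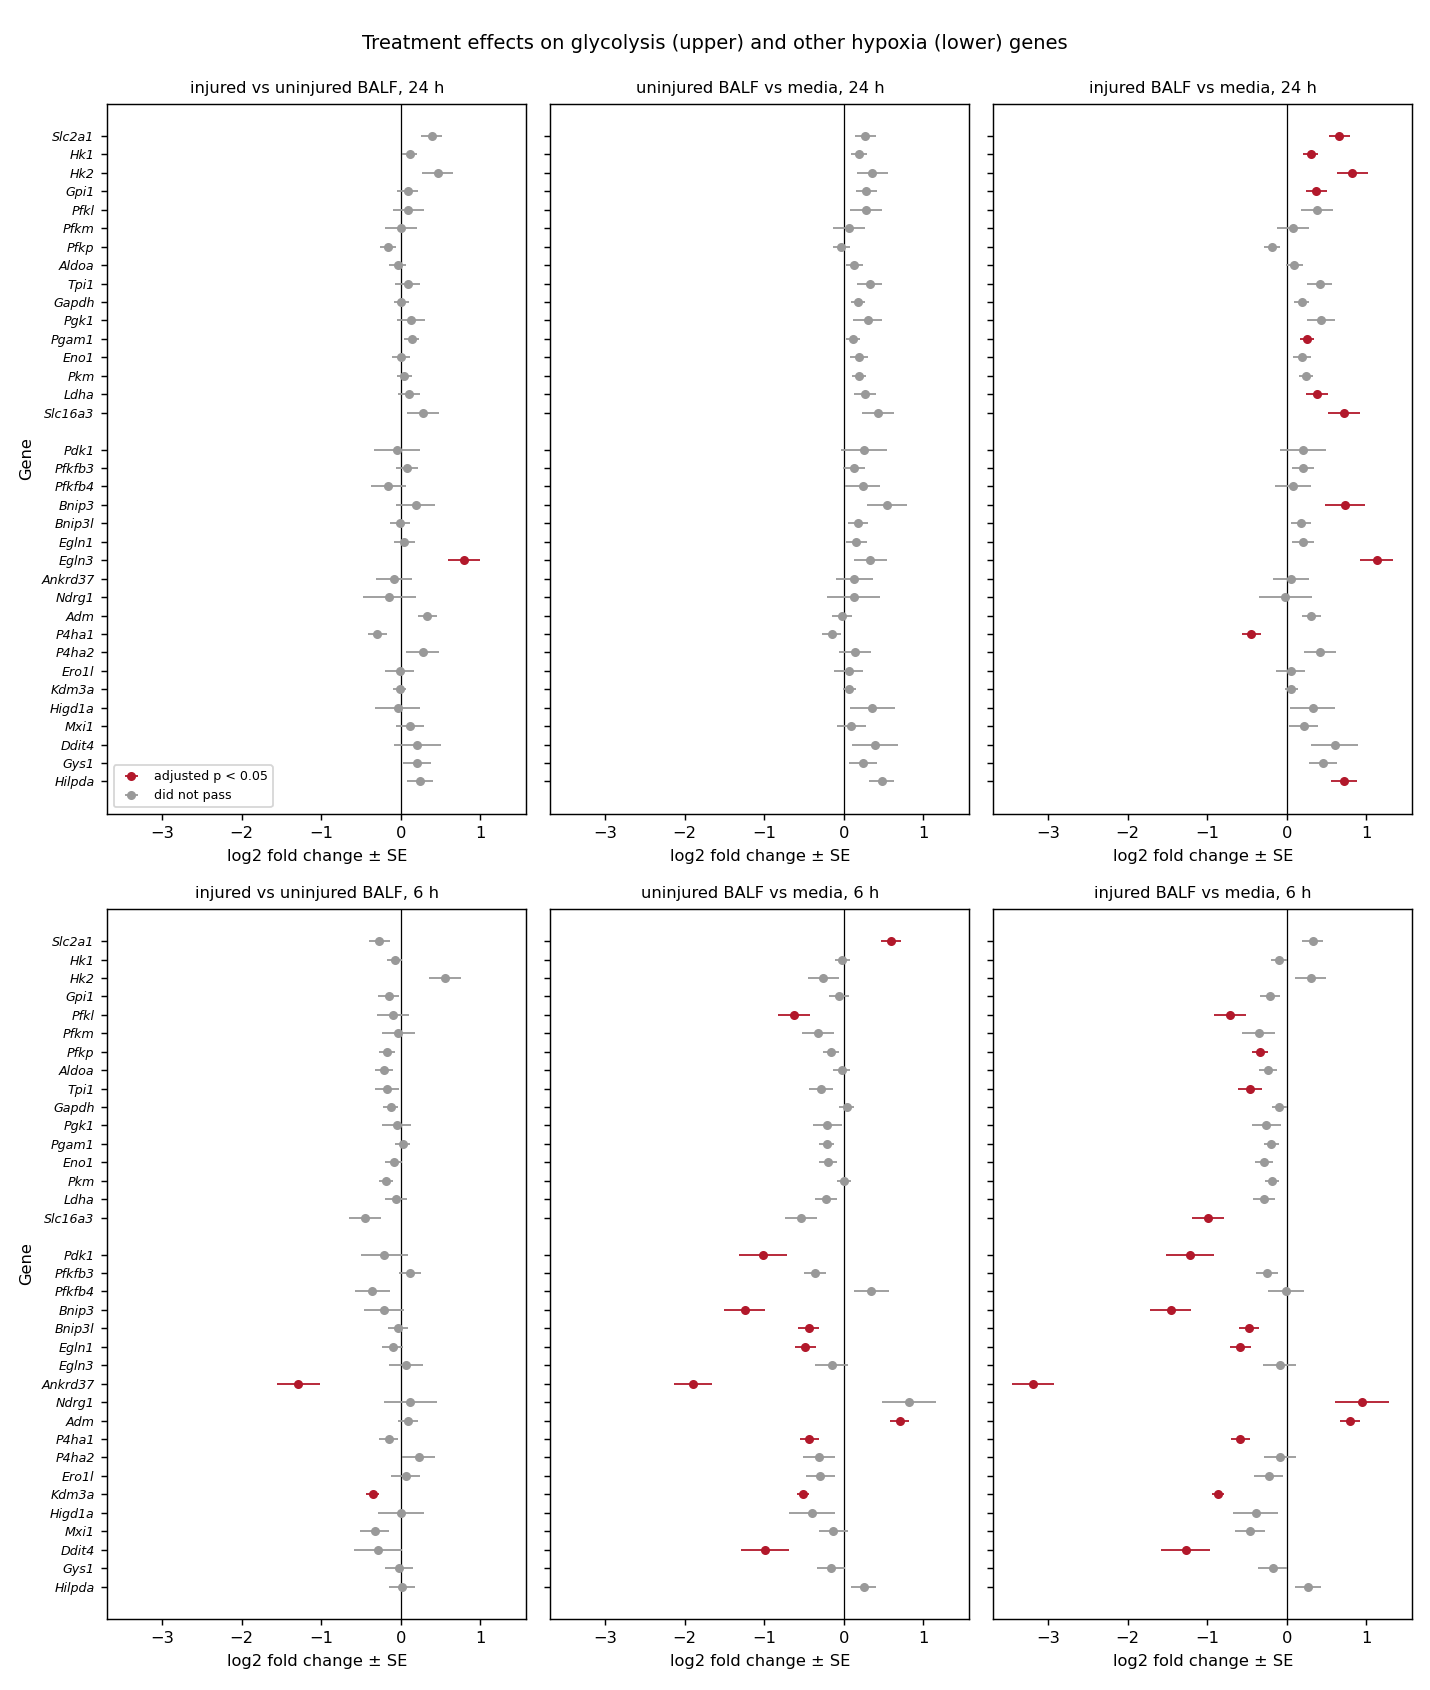
Log2 fold change (horizontal axes) of each of the 35 genes in the 6 comparisons of treatments, 24 h above and 6 h below; bars are ± 1 SE from edgeR, and red points passed at an adjusted p under 0.05. Most red points of 6 h lie below 0, down to -3.19 for Ankrd37, and most of 24 h lie above 0, up to 1.13 for Egln3.

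What fluid of an injured lung did beyond lavage fluid as such was tested by setting injured against uninjured BALF. At 24 h 1 of 35 genes passed, Egln3, where 4.42% of all genes passed (2.38% rose and 2.04% fell), and the median of the 35 was 0.09. DESeq2 called 1 gene too, and 5 had an unadjusted p under 0.05, as had 2715 of all 15901 genes. Egln3 (chr12:54178981-54203860, minus strand) encodes PHD3, a hydroxylase that is itself induced by hypoxia-inducible factors. It lay at 33.8, 50.8 and 82.2 CPM in injured BALF, 22.1, 27.9 and 63.1 CPM in uninjured BALF, and 16.97, 25.3 and 39.1 CPM in media. Injured BALF was 1.74-fold higher than uninjured BALF (log2 0.80 ± 0.21, adjusted p = 0.021). The highest uninjured library, female replicate 1, overlapped injured BALF, and the next highest lay below all of it. The log2 ratio was 0.34 over libraries 1 and 2 and 1.70 over libraries 3. The call was lost without any single one of 4 libraries, replicate 3 of either sex in injured or uninjured BALF, with an adjusted p of up to 0.091, and Slc2a1 passed too without female uninjured BALF replicate 1.

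No other gene of the 35 passed at 24 h, and the intervals show what sizes remain possible. They ran from -0.32 to 0.70 for Bnip3, from -0.64 to 0.56 for Pdk1, from -0.18 to 0.39 for Ldha, from -0.13 to 0.69 for Slc16a3 and from -0.21 to 0.36 for Pfkfb3 (approximate 95% intervals of the log2 fold change). Those of Slc2a1 (0.12 to 0.66), Hk2 (0.06 to 0.87) and Adm (0.08 to 0.59) lay above 0 without passing after adjustment, at adjusted p = 0.089, 0.21 and 0.13.

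At 6 h 2 of 35 genes passed in injured against uninjured BALF, Ankrd37 and Kdm3a, both lower in injured BALF, where 3.43% of all genes passed (1.97% rose and 1.46% fell). DESeq2 called 2 as well, and 6 had an unadjusted p under 0.05, 5 of them lower. Of all 15901 genes, 2120 had an unadjusted p under 0.05. Both calls held without every single library. Both were lost, however, without replicate 1, 2 or 3 of all groups, and when libraries 1 and 2 were summed. Without replicate 3 Hk2 passed in their place. Bnip3 did not pass, with an interval of -0.74 to 0.31, nor did Pdk1 (-0.82 to 0.41) or Ddit4 (-0.91 to 0.34). Hk2 lay at 107.5, 134.9 and 191.0 CPM in injured BALF, 77.4, 91.1 and 116.5 CPM in uninjured BALF, and 67.0, 123.4 and 153.6 CPM in media. The Hk2 difference was 0.56 ± 0.20 on the log2 scale (adjusted p = 0.14).

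Marker sums that moved with treatment are given beside these results. At 24 h the pericyte sum was 591.9 to 998.5 CPM in injured BALF, 965.8 to 1523 CPM in uninjured BALF and 1364 to 2567 CPM in media. The neutrophil sum was then 5.48 to 8.98 CPM in injured BALF, 0.762 to 4.74 CPM in uninjured BALF and 0.348 to 1.93 CPM in media. Of its genes, S100a9 was at 0 in all uninjured BALF and media libraries of 24 h, but it had only 36 counts over all libraries. S100a8, Camp, Mmp8 and Mpo were detected in both of these groups. The macrophage sum at 24 h was 62.39 to 79.57 CPM in injured BALF, 20.86 to 86.44 CPM in uninjured BALF and 17.15 to 57.84 CPM in media, so that injured BALF lay wholly above media. In that comparison 3 of 8 macrophage markers rose and 0 fell, with a median log2 fold change of 0.91, where 11.5% of all genes rose. At 6 h the pericyte sum was 620.3 to 1248 CPM in injured BALF, 898.8 to 1412 CPM in uninjured BALF and 1065 to 1860 CPM in media, and the macrophage sum 60.0 to 85.3, 59.2 to 82.5 and 17.4 to 70.6 CPM in the same order. Medians of the fibroblast sum were 16008, 21285 and 21320 CPM at 24 h and 16047, 17543 and 21510 CPM at 6 h, in that order. At 24 h those of the endothelial sum were 64.6, 49.0 and 27.2 CPM. Those of the mesothelial sum were then 29.8, 48.7 and 51.0 CPM. The ranges of the fibroblast, endothelial and mesothelial sums overlapped between treatments. The part of these marker sums in the results was not tested.

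Between the 2 times the genes moved together in BALF. In injured BALF 28 of 35 genes rose and 0 fell in 24 h against 6 h, where 27.0% of all genes passed (12.8% rose). In uninjured BALF 22 rose and 0 fell, where 30.7% of all genes passed (15.2% rose). In media 3 rose and 0 fell, where 6.84% passed (3.51% rose and 3.33% fell). The medians of the 35 were 0.64, 0.50 and 0.14 on the log2 scale, against 0.01, 0.02 and 0.03 over all genes. Over all genes 2032 rose and 2263 fell in injured BALF and 2418 rose and 2463 fell in uninjured BALF; with upper quartile scaling these were 2466 and 1809, and 3112 and 1896.

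Of the 16 glycolytic genes, 14 rose in injured BALF, 9 in uninjured BALF and 0 in media between the times, with medians of 0.52, 0.35 and 0.08. Slc16a3 had the largest of the 14 rises in injured BALF, 1.63 ± 0.20 in injured BALF (adjusted p = 1.2e-06), and rose by 0.90 ± 0.20 in uninjured BALF (adjusted p = 0.0011), against -0.07 ± 0.20 in media. Pfkl, the liver-type phosphofructokinase that commits sugar to glycolysis, rose by 1.27 ± 0.20 and 1.08 ± 0.20 in injured and uninjured BALF. Slc2a1 rose in injured BALF by 0.64 ± 0.13 (adjusted p = 0.00057), while its values were -0.02 ± 0.13 in uninjured BALF and 0.30 ± 0.13 in media. Hk2 and Pfkp were the 2 that passed in no treatment, at -0.04 and 0.21 in injured BALF. The calls in Gapdh and Pgk1 (0.25 and 0.53 in injured BALF) were each lost without female injured BALF 24 h replicate 3 or some other single libraries, 7 and 3 in all. Levels of Gapdh, Eno1, Pgk1, Ldha, Tpi1, Pgam1, Aldoa and Pkm are uncertain, since these genes have near-identical copies; those in the table, such as Eno1b (5113 counts over all libraries) and Pgam1-ps2 (2798), took few counts.

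Of the 19 other hypoxia targets, 14 rose in injured BALF, 13 in uninjured BALF and 3 in media, with medians of 0.99, 0.75 and 0.20. Ankrd37 was 8.09-fold higher at 24 than at 6 h in injured BALF (log2 3.02 ± 0.26, adjusted p = 4.5e-09) and 3.51-fold higher in uninjured BALF (1.81 ± 0.24, adjusted p = 3e-06), with -0.22 ± 0.23 in media. Bnip3 was 6.00-fold higher in injured BALF (2.59 ± 0.26, adjusted p = 6.7e-08) and 4.54-fold higher in uninjured BALF (2.18 ± 0.26, adjusted p = 6.5e-07), with 0.39 ± 0.25 in media. Ddit4 rose by 2.34 ± 0.31 and 1.85 ± 0.31, and Pdk1 by 1.90 ± 0.30 and 1.74 ± 0.30, in injured and uninjured BALF. For all 4 genes, and for Kdm3a and Egln1, every 24 h library of either BALF lay above every 6 h library of the same BALF. The same held for Pfkfb3, Bnip3l, Egln3, Higd1a, Mxi1 and Gys1, and for the glycolytic Hk1, Gpi1, Pfkl, Tpi1 and Slc16a3. The share of all genes so separated was not computed.

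Pfkfb3, whose product makes the activator of phosphofructokinase, rose under all 3 treatments, by 1.02 ± 0.14 in injured BALF, 1.06 ± 0.14 in uninjured BALF and 0.56 ± 0.14 in media. It lay at 60.8, 90.7 and 135.1 CPM in injured BALF, 67.6, 85.6 and 132.6 CPM in uninjured BALF, and 69.6, 78.6 and 96.7 CPM in media at 24 h. At 6 h it lay at 43.0, 47.1 and 50.5 CPM in injured BALF, 35.7, 41.3 and 56.7 CPM in uninjured BALF, and 47.8, 53.4 and 63.7 CPM in media. In media Adm and Ndrg1 rose by 0.81 ± 0.12 (adjusted p = 0.00054) and 1.15 ± 0.34 (adjusted p = 0.038), and in uninjured BALF they gave 0.08 ± 0.12 and 0.45 ± 0.33. For Adm the difference between these changes passed the test given below, and for Ndrg1 it did not (-0.70 ± 0.47, adjusted p = 0.53). At 24 h Adm lay at 139.1, 181.4 and 217.7 CPM in injured BALF, 105.8, 149.4 and 168.3 CPM in uninjured BALF, and 128.5, 140.6 and 176.6 CPM in media. Pfkfb4, Ero1l and Hilpda passed under no treatment between the times. The media calls of Ndrg1 and Pfkfb3 rested on single libraries: that of Ndrg1 was lost without any of 9, female media only 24 h replicate 3 among them, and that of Pfkfb3 without male media only 6 h replicate 2, when 1 gene of the 3 passed.

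**Figure D4:**
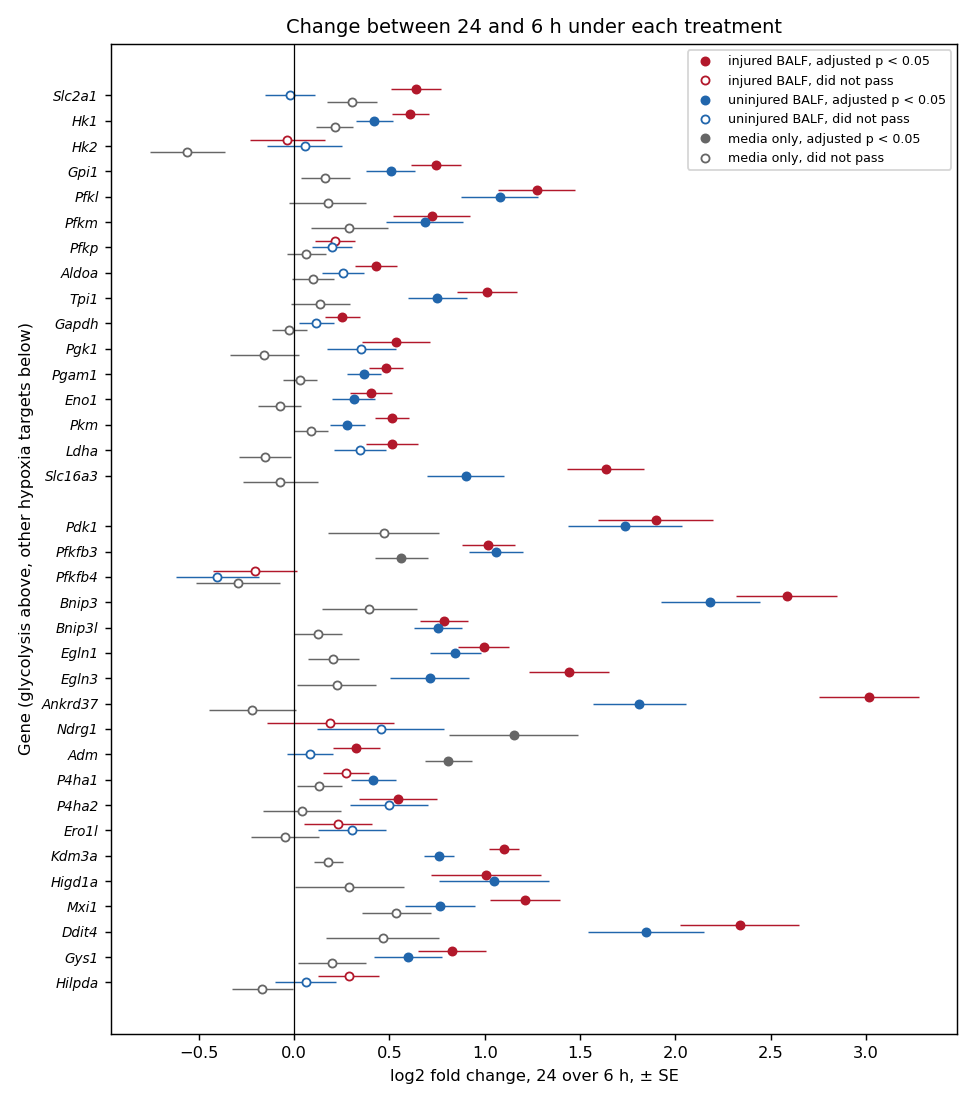
Log2 fold change of 24 over 6 h (horizontal axis, ± 1 SE from edgeR) of each of the 35 genes in injured BALF (red), uninjured BALF (blue) and media only (grey); filled points passed at an adjusted p under 0.05. Red and blue points lie right of grey ones for most genes, Ankrd37 reaching 3.02 and 1.81 against -0.22, while for Adm and Ndrg1 the grey points lie furthest right.

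Whether the effect of BALF differed between the times was tested directly. For uninjured BALF against media, the 24 h minus 6 h difference passed in 4 of 35 genes, where 1.96% of all genes passed (110 above and 202 below 0, or 151 and 154 with upper quartile scaling). It was above 0 for Ankrd37 (log2 2.03 ± 0.33, adjusted p = 0.00097), Bnip3 (1.79 ± 0.36, adjusted p = 0.0064) and Kdm3a (0.58 ± 0.11, adjusted p = 0.0042) and below 0 for Adm (-0.73 ± 0.17, adjusted p = 0.024). For injured BALF against media, a comparison added after seeing the data, it passed in 10, all above 0, where 2.60% of all genes passed (1.45% below 0). These were Ankrd37 (3.24 ± 0.35), Bnip3 (2.19 ± 0.36), Ddit4 (1.87 ± 0.42), Slc16a3 (1.71 ± 0.28), Egln3 (1.22 ± 0.29), Pfkl (1.10 ± 0.28), Kdm3a (0.92 ± 0.11), Tpi1 (0.87 ± 0.22), Egln1 (0.79 ± 0.19) and Bnip3l (0.66 ± 0.18). The call for Adm was lost without any of 3 single libraries (female uninjured BALF 24 h replicate 3, male media only 24 h replicate 3 and male uninjured BALF 6 h replicate 2), and in injured BALF those for Tpi1, Pfkl and Bnip3l without any of 3, 10 and 22. The 2 sets share the media libraries. The count of 4 rested on single female 24 h libraries, being 7 without injured BALF replicate 2, 13 without media only replicate 3 and 9 without uninjured BALF replicate 2, and 12 without the 3 high libraries. The count of 10 was 16 without female uninjured BALF 24 h replicate 1 and 18 without the 3 high libraries. Both counts fell when libraries 1 and 2 were summed, to 0 and 3, and without the 4 libraries of separate serial numbers, to 2 and 4. Over all genes 312 and 414 calls became 411 and 512 without the 3 high libraries. They became 3 and 39 summed, and 132 and 222 without the 4 libraries of separate serial numbers. Without these 4 the calls lost were those of Bnip3 and Adm in uninjured BALF and of Ddit4, Egln3, Pfkl, Tpi1, Egln1 and Bnip3l in injured BALF.

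The injured against uninjured effect did not differ between times by the test in any of the 35 genes (edgeR 0, DESeq2 0, and 5 at an unadjusted p under 0.05, where 0.239% of all genes passed, 24 above and 14 below 0, or 18 and 17 with upper quartile scaling). The largest of these differences was that of Ankrd37, 1.204 ± 0.35 (adjusted p = 0.19). Of all 15901 genes, 1236 had an unadjusted p under 0.05 in this test. Slc2a1, at 0.66 ± 0.18 (adjusted p = 0.16), passed without female uninjured BALF 24 h replicate 1. The male minus female difference of the injury effect passed in 0 genes at 24 h and 0 at 6 h, by edgeR and by DESeq2, with 0 and 1 of the 35 at an unadjusted p under 0.05 and 0 of all genes called by edgeR at either time. Of all 15901 genes, 150 at 24 h and 113 at 6 h had an unadjusted p under 0.05 for that difference.

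Isozymes were compared as CPM per kilobase of exon, merged over all annotated transcripts of a gene, so the order depends on that length. It was 8532 bases for Hk1, 5969 for Hk2, 3340 for Pfkm and 13401 for Pfkp. In CPM alone, at 24 h in injured BALF, Hk1 lay at 153.1 to 222.0 and Hk2 at 123.3 to 156.9. Pfkp then lay at 65.8 to 100.9 CPM and Pfkm at 44.4 to 82.7 CPM, the reverse of their order per kb. Of the phosphofructokinases, Pfkl was the highest in every group, with a median of 42.3 CPM per kb in injured BALF, 35.1 in uninjured BALF and 30.9 in media at 24 h, and 18.1, 19.3 and 29.2 at 6 h. Pfkm and Pfkp had medians of 9.46 to 15.3 and 5.46 to 7.36 CPM per kb over the 6 groups. Of the hexokinases, Hk2 had a median of 23.1 CPM per kb and Hk1 of 21.7 in injured BALF at 24 h, with overlapping ranges, against 15.8 and 19.3 in uninjured BALF and 12.5 and 17.6 in media. At 6 h Hk2 and Hk1 had medians of 22.6 and 14.7 in injured BALF, 15.3 and 15.3 in uninjured BALF, and 20.7 and 15.8 in media. Per kb the Hk2 median was thus above that of Hk1 in media too. Pfkfb3 exceeded Pfkfb4 in every group, at medians of 5.46 to 12.0 against 1.92 to 2.91 CPM per kb.

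The factors of the pathway and their regulators, a list of 10 genes, included Hif1a, which encodes HIF-1α. Hif1a lay at 504.4, 593.2 and 626.0 CPM in injured BALF, 342.7, 389.2 and 490.5 CPM in uninjured BALF, and 291.2, 391.8 and 525.7 CPM in media at 24 h. At 6 h it lay at 320.3, 402.9 and 460.3 CPM in injured BALF, 230.5, 259.8 and 305.5 CPM in uninjured BALF, and 274.7, 315.1 and 372.3 CPM in media. At both times injured BALF lay wholly above uninjured BALF, with a log2 fold change of 0.53 ± 0.11 at 24 h (adjusted p = 0.0034) and 0.57 ± 0.11 at 6 h (adjusted p = 0.0015). Both calls held without every single library and were lost without replicate 2 of all groups and when libraries 1 and 2 were summed. Hif1a was the 1 of the 10 genes that passed in this comparison at either time, where 4.42% of all genes passed at 24 h and 3.43% at 6 h. In uninjured BALF against media 0 of 10 passed at 24 h by edgeR and by DESeq2, where 0.868% of all genes passed by edgeR. There 1 had an unadjusted p under 0.05, as had 1793 of all 15901 genes. At 6 h 2 of 10 passed, where 18.4% of all genes passed. They were Hif1an, a rise of 0.28 ± 0.08 in an asparagine hydroxylase that blocks the factor, and Epas1 (HIF-2α), a fall of 0.74 ± 0.26. The Epas1 call was lost without any of 10 single libraries.

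Of 23 further hypoxia targets, 0 passed in injured against uninjured BALF at 6 h by edgeR and by DESeq2, where 3.43% of all genes passed by edgeR. There 6 had an unadjusted p under 0.05, as had 2120 of all 15901 genes. At 24 h 4 rose and 0 fell, where 2.38% of all genes rose. Plin2, which coats lipid droplets, rose by 0.85 ± 0.17 (adjusted p = 0.0023; lost without replicate 1 or 2 of all groups), at 176.0, 215.4 and 392.7 CPM in injured BALF and 116.8, 126.9 and 196.2 CPM in uninjured BALF. Tfrc (0.56 ± 0.15) and Stc2 (0.42 ± 0.11) passed too, and each call was lost without any of 6 and 7 single libraries, of both treatments and sexes. In uninjured BALF against media 3 rose at 24 h, Hmox1 (1.66 ± 0.32), Gbe1 (1.14 ± 0.22) and Tfrc (0.98 ± 0.15), where 0.516% of all genes rose. These 3 calls were lost with libraries 1 and 2 summed and without replicate 1 or 2 of all groups, and those of Hmox1 and Gbe1 also with only the groups compared and without the 4 libraries of separate serial numbers. At 6 h 4 rose and 6 fell, where 10.6% of all genes rose and 7.82% fell. Hmox1, heme oxygenase 1, which other stress pathways also induce, rose most at 6 h, by 3.55 ± 0.34 (adjusted p = 7.1e-08), while Rora and Ak4 fell by 0.67 ± 0.11 and 0.57 ± 0.14. Between the times 12 of the 23 rose and 4 fell in injured BALF, 11 rose and 3 fell in uninjured BALF, and 2 rose and 2 fell in media, where 12.8%, 15.2% and 3.51% of all genes rose. The medians of the 23 were 0.64, 0.51 and 0.17.

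Of 7 pentose phosphate genes, which branch off glycolysis, 2 rose at 24 h and 4 at 6 h in uninjured BALF against media and 0 fell, where 0.516% and 10.6% of all genes rose. Pgd rose by 0.94 ± 0.15 at 24 h (adjusted p = 0.00071; lost with libraries 1 and 2 summed and without replicate 1 or 2) and by 1.14 ± 0.15 at 6 h (adjusted p = 3.2e-06), and at 6 h it was lower in injured than in uninjured BALF (-0.55 ± 0.14, adjusted p = 0.028, lost without any of 8 single libraries). Rpia rose by 0.54 ± 0.11 at 6 h. Taldo1 at 6 h (0.77 ± 0.23) and Tkt at 24 h (0.37 ± 0.08) lost their calls without any of 3 and 5 single libraries. Of 13 genes of pyruvate entry into mitochondria, Pdk4, a relative of Pdk1, rose in injured against uninjured BALF by 0.95 ± 0.21 at 24 h (adjusted p = 0.0081) and by 0.87 ± 0.21 at 6 h (adjusted p = 0.017), the second lost without female injured BALF 6 h replicate 2. Both were lost with libraries 1 and 2 summed and without replicate 1 of all groups, the 24 h call also with only the groups compared and the 6 h call also without replicate 2. It also rose in uninjured BALF against media at 24 h (1.01 ± 0.22), a call lost without any of 4 single libraries. Pdha1, the catalytic subunit that Pdk1 and Pdk4 act on, gave -0.21 ± 0.06 in injured against uninjured BALF at 24 h and -0.17 ± 0.06 in uninjured BALF against media at 6 h, each lost without any of 7 and 6 single libraries. Pdhx (0.35 ± 0.08) and Pdp1 (0.73 ± 0.21) rose in uninjured BALF against media at 6 h.

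Of 20 other isozymes and carriers of the pathway, 14 passed the low-count filter. Eno3 alone passed in injured against uninjured BALF at 24 h (-1.06 ± 0.30, adjusted p = 0.041), where 4.42% of all genes passed. Its call was lost without any of 10 single libraries. In uninjured BALF against media 0 passed at 24 h by edgeR and 1 by DESeq2. There 2 had an unadjusted p under 0.05, as had 1793 of all 15901 genes. At 6 h 2 rose and 3 fell, where 10.6% of all genes rose and 7.82% fell. Among these, Slc16a1, the carrier MCT1, rose by 0.65 ± 0.18, Slc16a7, the carrier MCT2, fell by 1.01 ± 0.22, and Bpgm fell by 0.79 ± 0.25, the last lost without any of 5 single libraries. Of the 6 h calls against media in these lists, those of Ak4, Slc16a1 and Pdp1 were lost with libraries 1 and 2 summed and without replicate 1 or 2 of all groups, and those of Pdhx, Rpia and Slc16a7 without replicate 2.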

How the data were processed

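The 36 libraries came from the TruSeq Stranded mRNA kit, per the labels' protocols. The authors deposited whole-number counts per Ensembl gene. Per the submitters' processing notes, the tools were STAR 2.5.2b, RSEM 1.2.31 and DESeq2 on GRCm38, with no roles stated. The counts may thus be rounded RSEM estimates, which split reads between near-identical genes. Of 48795 identifiers, 48435 matched GENCODE M21.

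Differences were tested with edgeR 4.0.16 (R 4.3.3): quasi-likelihood test, TMM factors of 0.874 to 1.092, 12 groups of treatment, sex and time over all 36 libraries, 24 residual degrees of freedom. The expression filter left 15901 genes. The threshold was 0.05 after Benjamini-Hochberg adjustment. A treatment effect averages the effects in the 2 sexes. Its SE is |log2 fold change|/√F, and intervals use the t distribution with 24 degrees of freedom. The fit was tested on simulated counts. Alternatives were DESeq2 1.42.0, other scalings and filters, a replicate block, fitting only the groups compared, summing libraries 1 and 2, and leaving out libraries.

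The 35 genes and the other lists were chosen with earlier results of these data known. The lowest, median and highest values are given for 10 fixed genes and for the 3 largest called rises and falls of injured against uninjured BALF and of uninjured BALF against media at each time; pathway genes are named by the 3 lowest p-values of a list. P4ha1, Egln1, Ndrg1, Pfkl and other members beyond this rule were named after their values were seen. Reads were not analysed here.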

Additional observations from a re-analysis of the deposited data

Results flagged for a closer look

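Within each treatment and time the highest and lowest of 6 libraries were compared with the rest by Dixon's criterion, which chance meets in about 1 in 20 groups. 39 of 210 groups (35 genes in 6 groups) met it, and the genes are not independent. Female uninjured BALF 24 h replicate 1 was the high library in 20 of them, at 280 CPM for Slc2a1, 1033 for Gpi1, 424 for Pfkl, 2287 for Gapdh, 701 for Pgk1, 1928 for Eno1, 146 for Pdk1 and 133 for Pfkfb3. In the same library Bnip3 was at 311 CPM, Bnip3l at 139, Egln1 at 185, Egln3 at 63.1, Ndrg1 at 213, P4ha2 at 343, Ero1l at 460, Kdm3a at 79.9, Higd1a at 193, Ddit4 at 198, Gys1 at 220 and Hilpda at 18.2. Female media only 24 h replicate 3 was the high library for Pdk1 (109 CPM), Bnip3 (184), Ndrg1 (190), P4ha2 (299), Ero1l (392) and Gys1 (161). Female injured BALF 24 h replicate 3 was the high library for Pfkm (82.7 CPM), Pfkfb4 (15.1), Ndrg1 (151), Higd1a (157) and Ddit4 (186). What sets these 3 libraries apart was not tested.

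Other libraries stood apart in 1 or 2 genes each. Female injured BALF 24 h replicate 2 was low for Ldha (1106 CPM) and Slc16a3 (79.5 CPM). Female injured BALF 6 h replicate 3 was high for Pfkfb4 (19.8 CPM) and low for Ankrd37 (0.25 CPM). Female uninjured BALF 6 h replicate 3 was high for Pfkm (46.5 CPM), male media only 6 h replicate 3 for Tpi1 (608 CPM) and male uninjured BALF 6 h replicate 3 for Pfkfb3 (56.7 CPM). Female media only 24 h replicate 1 was low for Hilpda (4.12 CPM).

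The effect of BALF against media differed between 24 and 6 h by the edgeR test of the difference itself. For injured BALF the log2 difference was 3.24 for Ankrd37, 2.19 for Bnip3, 1.87 for Ddit4, 1.71 for Slc16a3, 1.22 for Egln3, 1.10 for Pfkl, 0.92 for Kdm3a, 0.87 for Tpi1, 0.79 for Egln1 and 0.66 for Bnip3l. For uninjured BALF it was 2.03 for Ankrd37, 1.79 for Bnip3, 0.58 for Kdm3a and -0.73 for Adm.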

How the results depend on the processing

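None of the 106 calls on the 35 genes changed sign under any alternative, and 78 of them held without every single library. No result that had not passed was called in the opposite direction. Changes of sign among results that passed in neither fit were not counted. Counts of genes passing moved by over 1.5 times as follows, and the cause was not tested. Injured against uninjured BALF at 24 h (1 gene) gave 0 with libraries 1 and 2 summed, 2 with the replicate block, 0 without replicate 1, 2 or 3 and 0 to 2 without single libraries; at 6 h (2) it gave 0 summed and 0, 0 and 1 without replicate 1, 2 and 3. Injured BALF against media at 24 h (11) gave 6 summed, 6 with only the groups compared, 17 without the 3 high female libraries, 6 without the 4 libraries of separate serial numbers, 6 and 5 without replicate 1 and 2, and 6 to 21 without single libraries; at 6 h (14) it gave 24 with only the groups compared. Uninjured BALF against media at 6 h (11) gave 6 summed, 17 without the 3 libraries, and 5 and 3 without replicate 1 and 2. The 24 over 6 h comparison in uninjured BALF (22) gave 11 without replicate 1 and 17 to 25 without single libraries; that in media (3) gave 5 with DESeq2, the block or without the 3 libraries, 0 summed or without replicate 1 or 2, and 1 to 4 without single libraries. The uninjured BALF effect between times (4) gave 10 with DESeq2, 0 summed, 7 with the block, 12 without the 3 libraries, 2 without the 4, 0, 0 and 7 without replicate 1, 2 and 3, and 3 to 13 without single libraries. The injured BALF effect (10) gave 16 with DESeq2, 3 summed, 18 without the 3 libraries, 4 without the 4, 2 and 3 without replicate 1 and 2, and 7 to 16 without single libraries. The injury effect between times (0) gave 0 to 1 without single libraries. Calls over all genes moved as well. Summed, they went from 703 to 174 and from 546 to 105 for injured against uninjured BALF at 24 and 6 h. For injured BALF against media at 24 h they went from 3774 to 2126. In media between the times they went from 1087 to 8. Without replicate 1 the same comparisons, in that order, had 113, 85, 1902 and 5 calls over all genes. Without replicate 2 they had 130, 69, 1341 and 0 calls. Without replicate 3 injured against uninjured BALF instead had more calls over all genes, 847 at 24 h and 752 at 6 h. With only the groups compared, injured BALF against media had 2421 calls over all genes at 24 h and 4374 at 6 h, in place of 3774 and 4011. Leaving out the 3 female libraries was chosen after seeing the data. Whether replicate numbers pair the samples is not stated in the labels, and the replicate numbers did not meet the requirement that every pair correlate above 0.1: same-numbered libraries had correlations of -0.49 to 0.65 (median 0.27), 50 of 90 over 0.1. Libraries of different numbers had a median of -0.05. For 32 of 36 libraries the mean correlation with libraries of the same sex in other groups was highest for their own number. The values correlated were deviations from the mean of each group of 3. A positive correlation at the same number therefore lowers those at different numbers. The replicate block ended 0 and added 16 of the calls on the 35 genes and the other lists.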
